A study of Saccharomyces cerevisiae with 12 samples.

Results

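The 10 genes described here make purine and guanine nucleotides in budding yeast. They were taken by name from the yeast purine pathway, with earlier results of these data known. They are 10 of the 7127 gene IDs in the deposited tables. IMD2, IMD3 and IMD4 code for IMP dehydrogenase. ADE1, ADE2, ADE4, ADE57, ADE13 and ADE17 serve steps of purine ring synthesis, and MTD1 the folate carriers that feed it. RNA was sequenced from 4 groups of 3 libraries, all of strain BY4741 (S288C background), grown to mid-log phase in the rich medium YPD with no treatment. In H2AZ_4KR, 4 lysines of H2A.Z, a variant of histone H2A, are replaced by arginine, going by the name, and its control is WT_H2AZ. In Ino80_K929R the chromatin remodeller Ino80 has 1 amino acid replaced, and its control is WT_Ino80. The series set out to compare the transcriptomes of these strains.

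Counted fragments ranged from 17253140 to 20164258 per library. The labels do not say how the alleles were introduced, which promoters drive them or whether each strain is 1 clone. HTZ1, the gene of H2A.Z, averaged 387 ± 62.3 CPM (fragments per 1000000 counted) in H2AZ_4KR and 95.9 ± 2.88 CPM in WT_H2AZ, and INO80 averaged 1200.5 ± 150.3 CPM in Ino80_K929R and 150.2 ± 24.4 CPM in WT_Ino80 (SD, n = 3 each). LEU2, a leucine synthesis gene deleted in BY4741, had fragments in every library of H2AZ_4KR, Ino80_K929R and WT_Ino80 and 0 in each WT_H2AZ library. In each mutant the level of the mutated gene goes with the substitution, and in H2AZ_4KR the presence of LEU2 does too, so that these cannot be told apart as sources of the differences below.

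Yeast builds the purine ring step by step on phosphoribosyl pyrophosphate (PRPP), and the ADE enzymes carry the chain to inosine monophosphate (IMP). From IMP the path divides: adenylosuccinate leads to AMP, and IMP dehydrogenase, the rate-limiting enzyme of the guanine branch, leads to GMP. The transcription factors Bas1 and Pho2 together activate the ADE genes and several folate genes when intermediates of the pathway build up, while IMD2 is known for a choice of transcription start sites that answers to the GTP supply. IMD3 and IMD4 are IMD2's close relatives, and yeast cells that lack IMD2 are sensitive to the IMP dehydrogenase inhibitor mycophenolic acid.

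The promoter sequences are shown because the members fall into 2 classes, with and without the core of the Bas1 site, TGACTC. Both strands were searched in the 250 bases before each start codon, in the RefSeq genome of S. cerevisiae (R64, sacCer3). At least 1 match was present in 5 of the 6 ADE members and in MTD1, in 0 of the 3 IMD members, and in 374 of 6007 promoter windows of the genome (6.23%). ADE4 held none in this window. Each line below gives a stretch around the matches, read 5′ to 3′ on the strand of the gene, with 20 bases on either side. Capitals mark TGACTC, or GAGTCA where the match is on the opposite strand.
ADE1, chrI:169129-169183, plus strand: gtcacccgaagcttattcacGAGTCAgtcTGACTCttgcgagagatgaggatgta
ADE2, chrXV:566319-566407, minus strand: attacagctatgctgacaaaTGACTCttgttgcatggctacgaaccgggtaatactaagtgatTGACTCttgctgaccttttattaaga
ADE57, chrVII:56245-56323, plus strand: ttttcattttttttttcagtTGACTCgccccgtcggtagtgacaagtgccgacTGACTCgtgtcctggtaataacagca
ADE13, chrXII:844046-844091, plus strand: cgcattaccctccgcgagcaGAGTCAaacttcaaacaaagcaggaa
ADE17, chrXIII:509432-509477, minus strand: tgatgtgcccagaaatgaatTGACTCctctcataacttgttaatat
MTD1, chrXI:590201-590246, plus strand: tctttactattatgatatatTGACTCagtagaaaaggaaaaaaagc

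ADE1, ADE2 and ADE57 held 2 matches each, and ADE13, ADE17 and MTD1 held 1 each. The matches began between 226 and 153 bases before the start codon. The longer motif TGACTCA, which is the site of the general amino acid control factor Gcn4 and contains the shorter one, was found in 130 of 6007 windows (2.16%) and, among the members, in MTD1 alone. Of the members called as higher in H2AZ_4KR (below), ADE57 and MTD1 held a TGACTC match, and IMD2, IMD4 and ADE4 held none. ADE1, ADE2, ADE13 and ADE17 held a match and were not called, and IMD3 had neither. A match is a description of the letters and not of a bound factor, and a link with RNA level was not tested.

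IMD2 and IMD3 had no match in this window, and their promoters are shown because the coding parts of the 2 genes are closely alike. The sequences below are the 250 bases before each start codon. Capitals mark runs of at least 15 identical bases shared by the 2 promoters.
IMD2, chrVIII:554146-554395, plus strand: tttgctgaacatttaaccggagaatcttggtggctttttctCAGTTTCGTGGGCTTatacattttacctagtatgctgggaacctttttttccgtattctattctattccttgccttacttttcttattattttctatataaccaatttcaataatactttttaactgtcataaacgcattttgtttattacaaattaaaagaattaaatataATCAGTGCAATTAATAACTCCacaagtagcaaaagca
IMD3, chrXII:1002307-1002556, plus strand: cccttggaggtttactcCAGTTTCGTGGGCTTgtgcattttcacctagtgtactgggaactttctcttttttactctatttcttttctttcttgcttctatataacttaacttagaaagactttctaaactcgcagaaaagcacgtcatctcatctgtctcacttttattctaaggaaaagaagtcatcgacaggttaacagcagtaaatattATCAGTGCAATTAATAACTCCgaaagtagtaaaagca

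The capitals mark a run of 15 bases, from 209 to 195 before the start codon in IMD2 and from 233 to 219 in IMD3, and a run of 21 bases that lies from 37 to 17 before the start codon in both. Outside these runs the promoters have no identical run of that length, whereas the coding sequences of IMD2 and IMD3 are 88.9% identical. IMD2 and IMD4 are 79.2% identical over their coding sequences, and IMD3 and IMD4 are 82.5% identical. Among all 50-base stretches of the coding sequence, 33.7% of those of IMD2, 16.6% of those of IMD3 and 7.01% of those of IMD4 occur in another gene, against 0 for each of the other 7 members. Fragments from such stretches may be split or lost in counting, so levels of the IMD genes are less certain than those of the ADE genes. The IDs YAR073W and YAR075W, which share such stretches with the IMD genes, had 21 to 70 and 0 to 18 fragments per library.

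On sacCer3, IMD2 (YHR216W) lies on chromosome VIII from 554396 to 555967, 6.7 kb from the chromosome end. IMD3 (YLR432W) lies on chromosome XII from 1002557 to 1004128, and IMD4 (YML056C) on chromosome XIII from 162194 to 164176, with 2 exons and the small nucleolar RNA gene snR54 in its intron. The ADE members are ADE1 (YAR015W, chromosome I, 169375 to 170295), ADE2 (YOR128C, XV, 564476 to 566191), ADE4 (YMR300C, XIII, 865559 to 867091), ADE57 (YGL234W, VII, 56482 to 58890), ADE13 (YLR359W, XII, 844282 to 845730) and ADE17 (YMR120C, XIII, 507502 to 509280). MTD1 (YKR080W) lies on chromosome XI from 590395 to 591357. All 10 passed the filter on low counts in every comparison, and values over their full annotated exons are given.

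In H2AZ_4KR the members stood higher as a group. They were chosen with earlier results of these data known, so the shares below describe these 10 genes and do not test the pathway. A gene was called where its fold change exceeded 1.5 and its adjusted p was below 0.05, as the series sets its limits, with edgeR's quasi-likelihood test and Benjamini-Hochberg adjustment over all genes, and adjusted p-values below come from it unless DESeq2 is named. By this rule 5 of the 10 members rose and 0 fell in H2AZ_4KR, where 12.1% of 6106 genes tested were called, 4.78% as higher and 7.32% as lower. The median log2 fold change of the members was 0.59, beside -0.01 over all genes tested. Without the fold limit, 9 of 10 members were higher at an adjusted p below 0.05, where 10.5% of all genes were. In 9 of 10 members each H2AZ_4KR library lay above each WT_H2AZ library, which was so for 10.4% of all genes. Fold changes are given after TMM scaling and are here larger than ratios of CPM. With libraries scaled by total counts, the median was -0.15 for all genes and 0.45 for the members. In a bulk culture, a higher level in each cell and a larger share of cells with the RNA cannot be told apart.

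**Figure D1:**
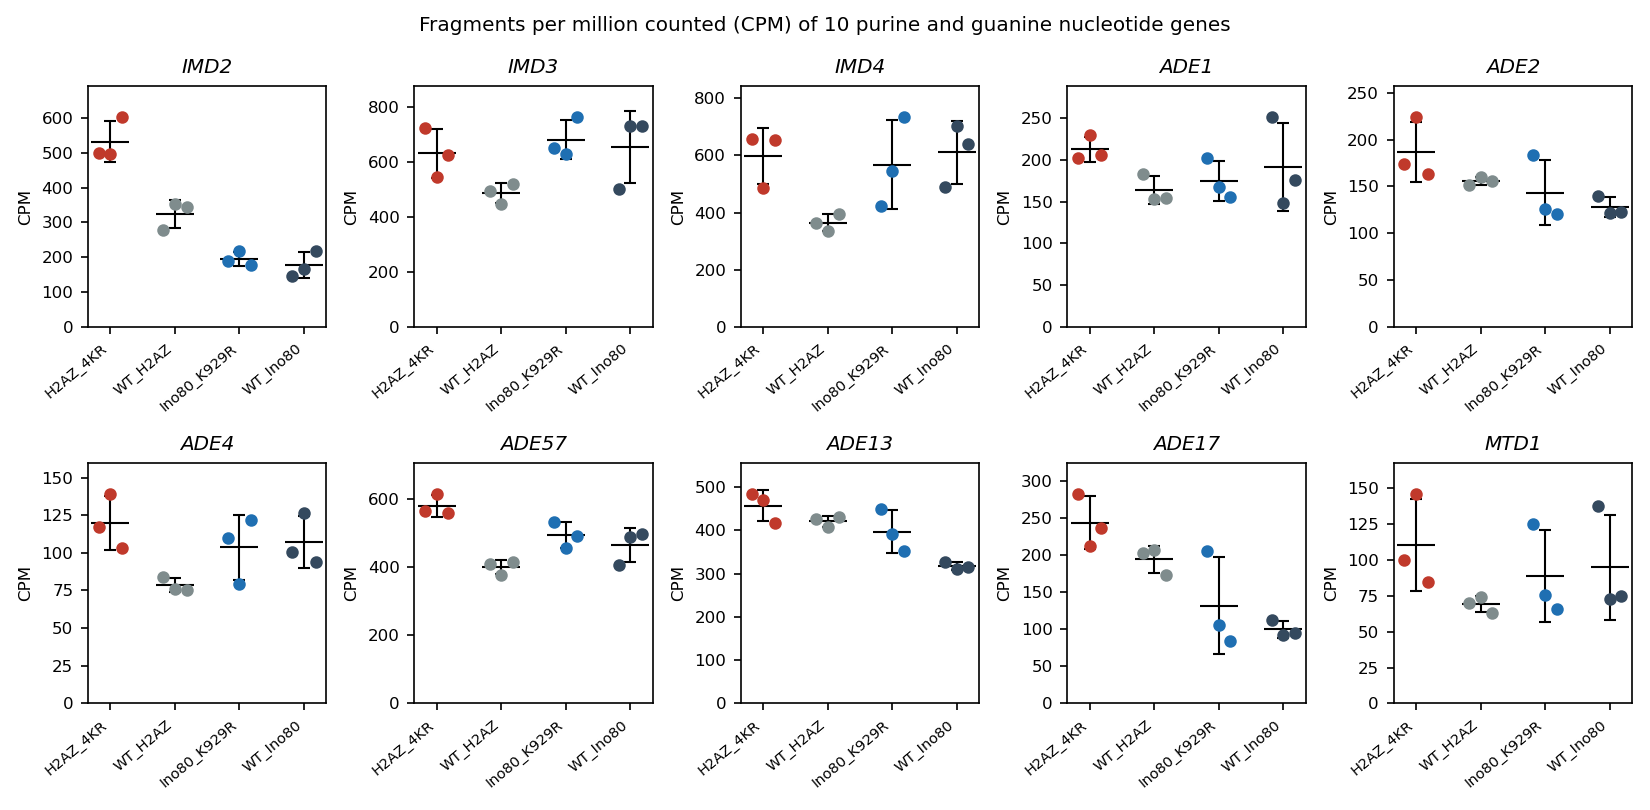
Level in CPM (fragments per 1000000 counted, linear axis from 0) of each of the 10 genes in each library, by group. Points are libraries in replicate order, the long tick is the mean and bars are the SD over 3 libraries. IMD2 is ordered H2AZ_4KR, WT_H2AZ, then the groups of the Ino80 table, whereas IMD3 and IMD4 are lowest in WT_H2AZ.

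IMD2, the isoform tied to mycophenolic acid resistance, had 498, 496 and 601 CPM in the H2AZ_4KR libraries, against 279, 352 and 345 CPM in WT_H2AZ. The lowest H2AZ_4KR library lay above the highest WT_H2AZ one, and the fitted fold change was 1.80 (log2 0.85, SE 0.13, adjusted p = 0.00179). IMD4, a constitutively transcribed isoform, had 658, 486 and 652 CPM in H2AZ_4KR, against 364, 335 and 393 CPM in WT_H2AZ. Its groups did not overlap either, and it rose 1.81-fold (log2 0.86, SE 0.15, adjusted p = 0.00317). IMD3 had 724, 548 and 625 CPM in H2AZ_4KR, against 497, 447 and 520.3 CPM in WT_H2AZ. All 3 of its mutant libraries were higher, but its fold change of 1.43 was under the limit (log2 0.51, SE 0.14, adjusted p = 0.024).

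ADE4 encodes the amidotransferase that commits PRPP to purine synthesis. It had 117, 139 and 103 CPM in the H2AZ_4KR libraries, against 83.9, 76.1 and 75.6 CPM in WT_H2AZ, and rose 1.68-fold (log2 0.75, SE 0.12, adjusted p = 0.00239). ADE57, a fused enzyme that acts both on the next intermediate and on a later one, had 566, 616 and 559 CPM in H2AZ_4KR, against 411, 378 and 415 CPM in WT_H2AZ. In neither gene did the groups overlap, and ADE57 rose 1.59-fold (log2 0.67, SE 0.11, adjusted p = 0.0027). With scaling by total counts the log2 value of ADE57 was 0.53, under the fold limit.

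The carboxylase gene ADE2, whose loss turns yeast colonies red, had 174, 224 and 163 CPM in H2AZ_4KR, against 151, 159.5 and 156 CPM in WT_H2AZ. The gene for the step after it, ADE1, had 202, 229.9 and 206 CPM in H2AZ_4KR, against 184, 154 and 154 CPM in WT_H2AZ. Both stayed under the fold limit, at log2 0.40 for ADE2 (SE 0.12, adjusted p = 0.0372) and 0.52 for ADE1 (SE 0.11, adjusted p = 0.00845). ADE17, 1 of the isozymes that close the ring to IMP, had 283, 212 and 237 CPM in H2AZ_4KR, against 203, 207 and 174 CPM in WT_H2AZ. It was likewise under the limit (log2 0.47, SE 0.12, adjusted p = 0.0192), and its lowest mutant library was close to its highest wild-type one.

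ADE13 encodes adenylosuccinate lyase, which serves both the ring pathway and the AMP branch. Its libraries had 484, 469 and 416 CPM in H2AZ_4KR, against 426, 407 and 431 CPM in WT_H2AZ. It was the only member with overlapping groups and without an adjusted p below 0.05 in this comparison (log2 0.25, SE 0.11, adjusted p = 0.123). MTD1, a cytosolic dehydrogenase of folate one-carbon units, had 99.9, 146 and 84.2 CPM in H2AZ_4KR, against 70.0, 74.2 and 63.3 CPM in WT_H2AZ. It rose 1.75-fold (log2 0.81, SE 0.17, adjusted p = 0.00733), with replicate 2 of H2AZ_4KR the highest library. Without that library its log2 value was 0.56, under the fold limit, and in 1 fit of all 12 libraries its adjusted p was 0.166.

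In Ino80_K929R none of the 10 members was called, and none had an unadjusted p below 0.05 in edgeR. Across that fit 1 of 6161 genes was called, INO80 itself (0.0162%), and 6.17% of genes had an unadjusted p below 0.05. DESeq2 called 9 genes and 0 of the members. The members' median log2 fold change was 0.03, beside -0.01 over all genes, and single members ran between -0.21 for ADE1 (SE 0.28) and 0.35 for ADE17 (SE 0.36). The SEs in this table ran from 0.14 to 0.39, against 0.11 to 0.17 in the H2AZ table, so a change of the size seen in H2AZ_4KR was harder to detect here.

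**Figure D2:**
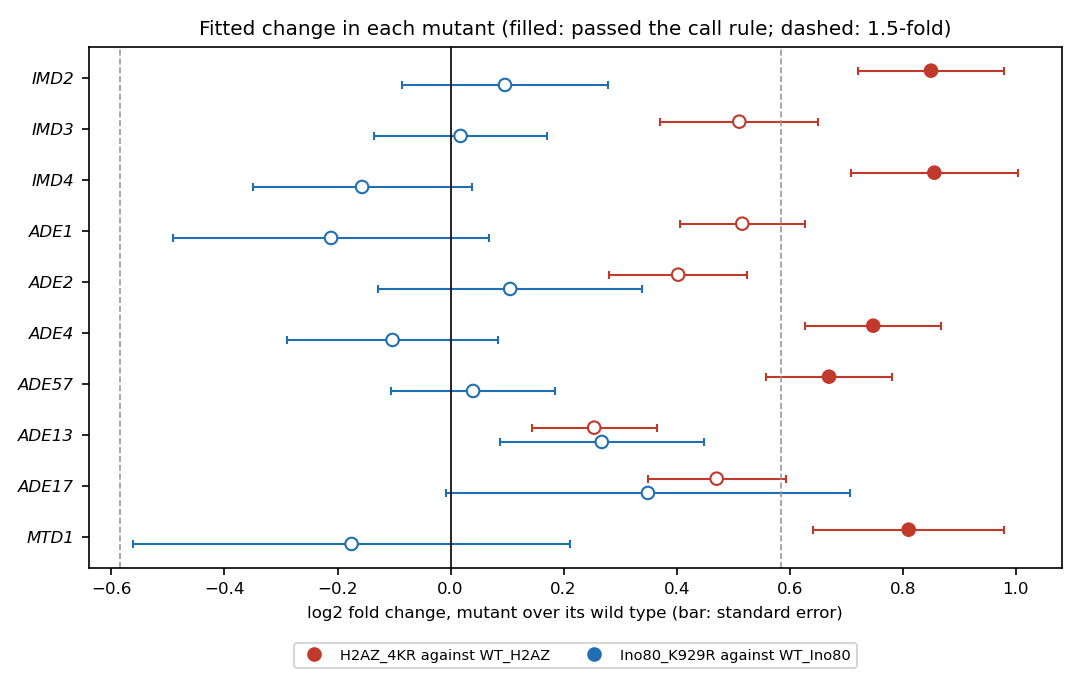
Fitted log2 fold change of each of the 10 genes in H2AZ_4KR over WT_H2AZ and in Ino80_K929R over WT_Ino80, with bars for the SE and dashed lines at a fold of 1.5. Filled points passed the call rule. All 10 H2AZ_4KR points lie above 0, between 0.25 and 0.86, and the Ino80_K929R points lie on both sides of 0.

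In the guanine branch no IMD gene passed the test in Ino80_K929R. IMD2 had 190.3, 217 and 176 CPM in Ino80_K929R, against 145, 167 and 218 CPM in WT_Ino80 (log2 0.10, SE 0.18, adjusted p = 0.887). IMD3 had 654, 631 and 764 CPM in Ino80_K929R, against 504, 731 and 732 CPM in WT_Ino80 (log2 0.02, SE 0.15, adjusted p = 0.974). IMD4 had 423, 546 and 732 CPM in Ino80_K929R, against 488, 703 and 639.9 CPM in WT_Ino80 (log2 -0.16, SE 0.19, adjusted p = 0.826). In all 3 the groups overlapped, and in IMD4 the range within Ino80_K929R was wider than the difference between the group means.

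Among the ADE members only ADE13 had groups that did not overlap. It had 449, 391 and 351 CPM in Ino80_K929R, against 327, 311 and 315 CPM in WT_Ino80, but it did not pass the test (log2 0.27, SE 0.18, adjusted p = 0.722). Over all genes, 6.36% had each Ino80_K929R library above each WT_Ino80 one. ADE17 had 206, 105 and 84.0 CPM in Ino80_K929R, against 113, 91.8 and 95.1 CPM in WT_Ino80. Its higher mean in Ino80_K929R came with replicate 1 alone, which was 2.18 times the mean of the other two.

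The remaining members had overlapping groups. ADE4 had 109.7, 79.5 and 122 CPM in Ino80_K929R, against 101, 127 and 94.1 CPM in WT_Ino80 (log2 -0.10, SE 0.19). ADE57 had 534, 457 and 491 CPM in Ino80_K929R, against 407, 491 and 499 CPM in WT_Ino80 (log2 0.04, SE 0.14). Neither value was larger than its SE. ADE2 had 183, 126 and 121 CPM in Ino80_K929R, against 140.1, 121 and 122 CPM in WT_Ino80 (log2 0.11, SE 0.23), with replicate 1 the highest in both groups. ADE1 had 202, 167 and 155 CPM in Ino80_K929R, against 251, 148 and 175 CPM in WT_Ino80. MTD1 had 125, 75.4 and 65.9 CPM in Ino80_K929R, against 137, 72.4 and 74.7 CPM in WT_Ino80 (log2 -0.18, SE 0.39), and in ADE1 and MTD1 too replicate 1 stood highest in each group.

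This feature was shared by several members. Replicate 1 was the highest of the 3 Ino80_K929R libraries for 6 of the 10 members, where it was the highest for 24.5% of 5315 genes, and the highest of WT_Ino80 for 5 of 10, against 25.4% of genes. ADE1, ADE2, ADE13, ADE17 and MTD1 were the members with this order in both groups. IMD2, IMD3, IMD4 and ADE57 were lowest in replicate 1 of WT_Ino80, and of the members only IMD4 was lowest in that of Ino80_K929R. The excess in replicate 1 over the mean of the other two was 1.77 times for MTD1 in Ino80_K929R and 1.86 times in WT_Ino80, and for ADE1 1.25 and 1.55 times in the same order of groups. Leaving out both libraries numbered 1, an alternative added after the data were seen, called 0 members. The part of these 2 libraries in the Ino80 comparison was not tested further.

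**Figure D3:**
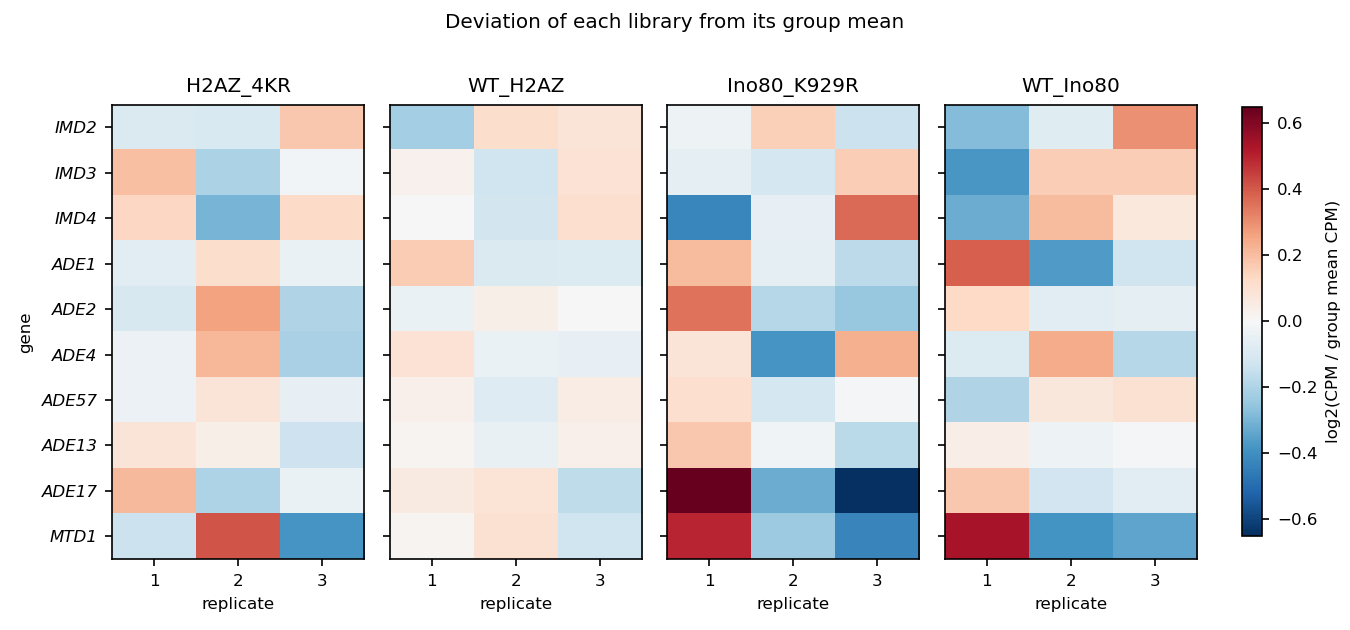
Deviation of each library from its group mean, as log2(CPM / group mean CPM), for the 10 genes (rows) in the 3 replicates (columns) of each group. Red is above and blue below the group mean. In both Ino80 groups ADE1, ADE2, ADE13, ADE17 and MTD1 are highest in replicate 1, where IMD4 is lowest, and WT_H2AZ has the palest panel.

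Whether the 2 mutants differed was tested as a contrast in 1 fit of all 12 libraries, as the Ino80_K929R effect minus the H2AZ_4KR effect on the log2 scale. IMD4 was the only member called, at -1.01 (SE 0.26, adjusted p = 0.0486), where 4.25% of 6235 genes were called and 1.99% in that direction. This call was close to the threshold: leaving out a single library gave adjusted p-values of 0.0218 to 0.116, above 0.05 in 10 of 12 cases, and a fit without the filter on low counts gave 0.0503. ADE4 had a difference of -0.84 (SE 0.23, adjusted p = 0.0538), ADE57 of -0.62 (SE 0.17, adjusted p = 0.0591) and IMD2 of -0.75 (SE 0.23, adjusted p = 0.073). DESeq2 called these 3 and IMD4, in a fit where it called 11.7% of all genes. For MTD1 the difference of -0.98 had an SE of 0.47 (adjusted p = 0.223), and it ran from -1.34 to -0.48 with single libraries left out, smallest in size without WT_Ino80 replicate 1. At an unadjusted p below 0.05 there were 6 of 10 members, against 24.2% of all genes. For the rest, including ADE13 at 0.02 (SE 0.21) and ADE17 at -0.12 (SE 0.41), a difference between the mutants was not shown.

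The IMD2 share of IMP dehydrogenase RNA separated the 2 tables rather than mutant and wild type. IMD2 supplied 26.51%, 32.43% and 32.01% of the IMD2, IMD3 and IMD4 fragments in H2AZ_4KR, against 24.48%, 31.07% and 27.4% in WT_H2AZ. It supplied 15.02%, 15.54% and 10.55% in Ino80_K929R, against 12.79%, 10.45% and 13.69% in WT_Ino80. Within each table the groups overlapped in this share, and every library of the H2AZ table lay above every library of the Ino80 table. The IMD3 share was 38.49%, 35.79% and 33.28% in H2AZ_4KR, against 43.58%, 39.42% and 41.35% in WT_H2AZ, with no overlap. In the Ino80 table the groups overlapped in the IMD3 share. The IMD4 share overlapped between the groups of each table and between the tables. The summed level of the 3 genes was 1881, 1530.0 and 1878 CPM in H2AZ_4KR, against 1140.0, 1134 and 1258 CPM in WT_H2AZ. The groups did not overlap in this sum, and the IMD2 share was 30.3 ± 3.3% in H2AZ_4KR and 27.7 ± 3.3% in WT_H2AZ (SD, n = 3 each).

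**Figure D4:**
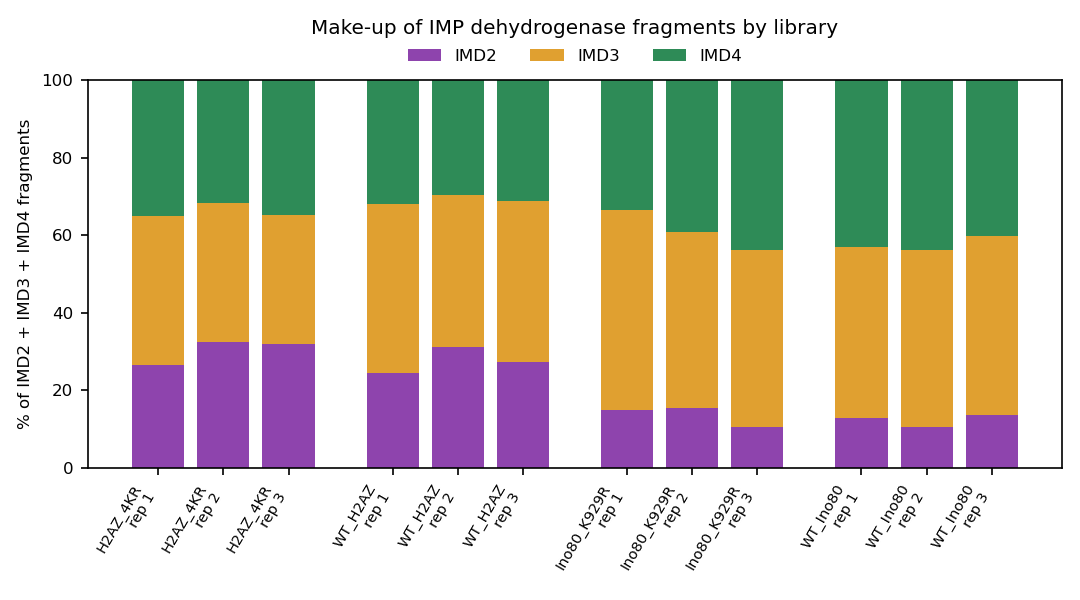
Share of IMD2, IMD3 and IMD4 in the summed fragments of the 3 genes (%, stacked from 0 to 100) in each of the 12 libraries, by group. The IMD2 share is between 24.5% and 32.4% in the 6 libraries of the H2AZ table and between 10.5% and 15.5% in the 6 of the Ino80 table.

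Across all 4 groups the order of levels differed between members. IMD2 was highest in H2AZ_4KR, lower in WT_H2AZ and lowest in Ino80_K929R and WT_Ino80, and of these neighbours only the last pair overlapped. ADE2, ADE13 and ADE17 had the same order of group means as IMD2. IMD3, IMD4, ADE1, ADE4, ADE57 and MTD1 were lowest in WT_H2AZ, and for IMD3 and IMD4 no WT_H2AZ library reached H2AZ_4KR or Ino80_K929R. Per kilobase of exon, which allows genes to be compared, IMD3 had the highest mean level in every group, from 434 CPM per kb in Ino80_K929R to 310.4 CPM per kb in WT_H2AZ. ADE4 was lowest in 3 groups, at 78.1 CPM per kb in H2AZ_4KR, 51.2 in WT_H2AZ and 67.6 in Ino80_K929R, and ADE17 was lowest in WT_Ino80, at 56.2 CPM per kb. IMD2 was the third of the 10 in H2AZ_4KR, at 338 CPM per kb, and the sixth in WT_Ino80, at 112 CPM per kb.

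The wild types were compared in the same 12-library fit. In WT_Ino80 against WT_H2AZ, IMD2 fell by 0.82 on the log2 scale (SE 0.16, adjusted p = 0.00206), ADE17 fell by 0.87 (SE 0.29, adjusted p = 0.0309) and IMD4 rose by 0.79 (SE 0.18, adjusted p = 0.00483). These 3 of 10 members are near the share of all genes called, 32.7%, made up of 17.7% higher and 15% lower. When single libraries were left out, the adjusted p of ADE17 was above 0.05 in 5 of 6 cases, all but WT_Ino80 replicate 1. In H2AZ_4KR against WT_Ino80, both of which have LEU2 fragments, IMD2 rose by 1.67 (SE 0.17, adjusted p = 3.2e-05), ADE17 by 1.34 (SE 0.30, adjusted p = 0.00426) and ADE2 by 0.60 (SE 0.20, adjusted p = 0.0334), where 26.2% of genes were called and 11.2% as higher. The ADE2 call was lost without replicate 1 or 2 of H2AZ_4KR and without replicate 2 or 3 of WT_Ino80. IMD4 had 0.06 (SE 0.18), ADE4 0.23 (SE 0.16), ADE57 0.39 (SE 0.12) and MTD1 0.24 (SE 0.33) in that comparison, so of the 5 members that rose over WT_H2AZ only IMD2 was also called over WT_Ino80. Table and strain cannot be told apart in these 2 comparisons, and the comparisons of H2AZ_4KR share its libraries.

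The rest of the pathway was read from 8 lists of 51 genes, of which 50 were matched and tested. By the call rule, with its fold limit, none of the 50 rose in H2AZ_4KR and 3 fell, beside 4.78% and 7.32% of all genes. Further list genes, more of them higher than lower, had an adjusted p below 0.05 but stayed under the fold limit. Values lay above 0 in 31 of the 50, and their median log2 fold change was 0.21, so a smaller rise was not confined to the members. In Ino80_K929R 0 of the 50 were called by edgeR or DESeq2. The 4 other genes of IMP synthesis had a median log2 fold change of 0.26 in H2AZ_4KR, the 5 tested genes of the AMP and GMP branches 0.37, and the 9 one-carbon genes 0.33, with 0 called in each. Medians of the PRPP synthetase, salvage and uptake, and histidine genes were -0.06, -0.09 and 0.09, for 5, 16 and 3 genes. The regulators (3 genes) had -0.20 and the transcription factors tied to IMD2 start site choice and termination (5 genes) had 0.08.

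**Figure D5:**
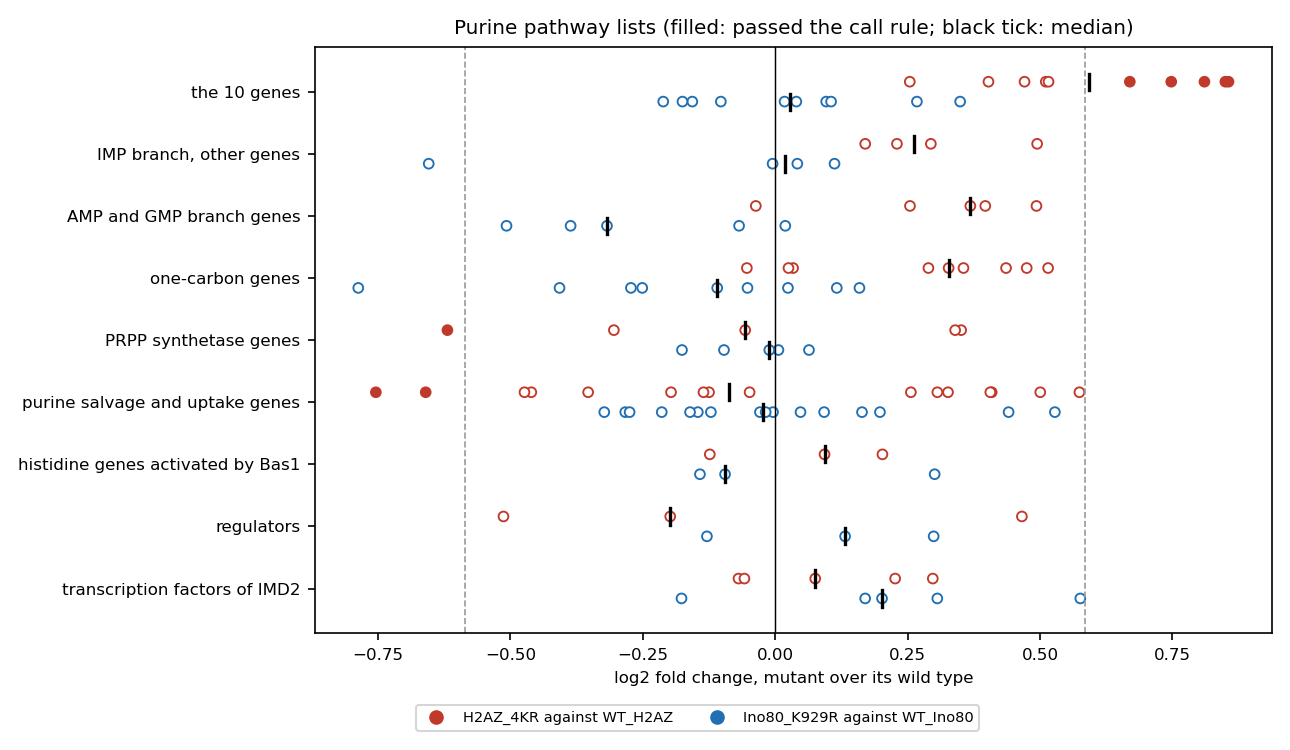
Fitted log2 fold change of each gene of the 10 members and of the 8 pathway lists, in H2AZ_4KR over WT_H2AZ and in Ino80_K929R over WT_Ino80, with a black tick at each list's median and dashed lines at a fold of 1.5. Filled points passed the call rule. The 3 filled points below 0 are PRS2, GUD1 and XPT1, and the filled points above 0 are all members.

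The genes that fell were 1 of 5 PRPP synthetase genes and 2 of 16 salvage and uptake genes, and 3 of 50 list genes is near the share of all genes that fell, 7.32%. In the same lists 2 of 5 and 7 of 16 genes had values above 0, up to 0.35 and 0.57 on the log2 scale. PRS2, a PRPP synthetase subunit gene, had 51.5, 58.9 and 67.6 CPM in H2AZ_4KR, against 89.9, 109 and 103 CPM in WT_H2AZ (log2 -0.62, SE 0.12, adjusted p = 0.00545). Without WT_H2AZ replicate 3 or H2AZ_4KR replicate 1 its log2 value was -0.57 or -0.53, under the fold limit. GUD1, guanine deaminase, had 24.7, 26.7 and 26.5 CPM in H2AZ_4KR, against 44.2, 50.8 and 49.7 CPM in WT_H2AZ (log2 -0.75, SE 0.11, adjusted p = 0.0015), and in 1 fit of all 12 libraries its adjusted p was 0.0651. XPT1, which salvages xanthine, had 24.5, 26.5 and 23.7 CPM in H2AZ_4KR, against 42.6, 43.5 and 43.9 CPM in WT_H2AZ (log2 -0.66, SE 0.11, adjusted p = 0.00262). In Ino80_K929R the log2 values of PRS2, GUD1 and XPT1 were 0.01, 0.09 and -0.32.

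In H2AZ_4KR, GUA1, ADE12 and SHM2, next to the members in the path, had log2 values within the members' range. Of the 4 other genes of IMP synthesis, ADE3 (0.29) and ADE8 (0.49) lay within it, and ADE6 (0.17) and ADE16 (0.23) below it. GUA1, GMP synthetase, averaged 742 ± 103 CPM in H2AZ_4KR and 619 ± 91.3 CPM in WT_H2AZ (log2 0.40, SE 0.16, adjusted p = 0.101). ADE12, which directs IMP to AMP, averaged 312 ± 19.5 CPM in H2AZ_4KR and 288 ± 7.46 CPM in WT_H2AZ (log2 0.25, SE 0.10, adjusted p = 0.0832). Neither passed the test. SHM2, the cytosolic serine hydroxymethyltransferase that feeds one-carbon units, averaged 499 ± 67.1 CPM in H2AZ_4KR and 386 ± 45.9 CPM in WT_H2AZ (log2 0.52, SE 0.13, adjusted p = 0.0148), under the fold limit. In Ino80_K929R it had 550.1, 363 and 301 CPM, against 504, 328 and 303 CPM in WT_Ino80, so it too was highest in replicate 1 of both groups.

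Neither activator gene was called in either mutant. BAS1 had 27.1, 14.1 and 24.3 CPM in H2AZ_4KR, against 29.4, 28.9 and 24.9 CPM in WT_H2AZ (log2 -0.20, SE 0.21, adjusted p = 0.527). PHO2 had 54.0, 53.0 and 48.3 CPM in H2AZ_4KR, against 84.5, 83.0 and 77.0 CPM in WT_H2AZ, with no overlap. Its log2 value of -0.51 (SE 0.10, adjusted p = 0.00521) was under the fold limit and was -0.65, past it, when libraries were scaled by total counts. BAS1 had 34.0, 42.5 and 107 CPM in Ino80_K929R, against 25.7, 91.9 and 46.2 CPM in WT_Ino80, lowest in replicate 1 of both groups, where 5 members were highest. PHO2 had 53.5, 53.8 and 53.6 CPM in Ino80_K929R, against 25.4, 54.0 and 49.5 CPM in WT_Ino80.

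Of 5305 genes that averaged 10 CPM or more, the 5 whose log2 CPM over the 12 libraries was most like the mean of the ADE members were HAC1 (Pearson r = 0.908), PDA1 (0.902), ATP17 (0.896), IPP1 (0.893) and SHM2 (0.893). The 5 most like the mean of the IMD members were IFA38 (r = 0.949), SAM4 (0.944), WRS1 (0.939), PMI40 (0.921) and EFT2 (0.902). SHM2 is a pathway gene, and the other 9 are not in the pathway lists. These coefficients describe 12 libraries in 4 groups, so they include the differences between groups and tables and come without a test.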

How the data were processed

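The authors deposited 2 tables of raw counts of fragments per gene, 1 for H2AZ_4KR and WT_H2AZ and 1 for Ino80_K929R and WT_Ino80. Reads were aligned with Bowtie 0.12.2 to sacCer3, per the submitters' processing notes, and counted over exons with featureCounts 2.0.1 without a strand or multi-mapping option, per the file headers. Libraries were made with the HTP KAPA kit, per the labels. Of 7127 gene IDs, 6047 matched a RefSeq R64 locus tag, 5992 of them with the same coordinates. The name IMD1 was not matched to a gene ID, so no value is given under that name.

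Each mutant was fitted with its own wild type in edgeR 4.0.16 (R 4.3.3, limma 3.58.1): filterByExpr at a minimum count of 10, TMM, and the quasi-likelihood F test. Other contrasts used all 12 libraries. DESeq2 1.42.0, limma-voom and other settings were alternatives. CPM are fragments per 1000000 counted in the library. Scripts were tested on simulated counts.

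The labels do not say that replicates are separate cultures. The p-values weigh group differences against the spread between libraries, which may be technical. Replicate libraries differed by more than sampling noise. Same-numbered libraries were alike in some pairs and not in others, and the main fits held no replicate block.

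The members, lists, tests and naming rule were chosen with earlier results of these data known. The rule took the members, list genes called in either mutant comparison, BAS1, PHO2, GUA1, ADE12 and SHM2, the mutated genes, LEU2, and the 5 genes most like each class. GUK1, HIS4 and PRS4 were named after their values were seen, as were GUD1 and XPT1 between the wild types.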

Additional observations from a re-analysis of the deposited data

Results flagged for a closer look

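IMD4 had effects in the mutants that differed by -1.01 on the log2 scale (Ino80_K929R effect minus H2AZ_4KR effect, SE 0.26, edgeR adjusted p = 0.0486), and the test of that difference is what marked it. Its own log2 fold changes were -0.16 in Ino80_K929R and 0.86 in H2AZ_4KR.

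GUK1, guanylate kinase, which makes GDP from GMP, was marked in the same way, at -0.998 (SE 0.24, edgeR adjusted p = 0.0394). It had 212, 219 and 236 CPM in Ino80_K929R, against 356, 252 and 291 CPM in WT_Ino80 (log2 -0.51, adjusted p = 0.722), and without WT_Ino80 replicate 1 its log2 value was -0.26. It had 248, 245 and 250.3 CPM in H2AZ_4KR, against 186, 195 and 201 CPM in WT_H2AZ (log2 0.49, under the fold limit, adjusted p = 0.00519). When single libraries were left out, its difference ran from -1.17 to -0.74 with adjusted p-values of 0.0167 to 0.102, and the call was lost in 8 of 12 cases: without any 1 library of H2AZ_4KR or WT_H2AZ, and without replicate 1 or 2 of Ino80_K929R.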

How the results depend on the processing

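The number of members called in H2AZ_4KR, 5, was 4 with scaling by total counts, 4 in 1 fit of all 12 libraries, 9 without the fold limit and 5 to 6 with single libraries left out. List calls in H2AZ_4KR, 3, were 6 with scaling by total counts, 18 without the fold limit and 3 to 5 with single libraries left out (5 without WT_H2AZ replicate 1 or H2AZ_4KR replicate 3). Of all genes, 13.2% were called with scaling by total counts, 5.55% in the fit of all 12 libraries and 22.9% without the fold limit. Members and lists had 0 calls in Ino80_K929R under every alternative run. For the difference between the mutants, 1 member was called, against 4 with DESeq2, which called 11.7% of all genes. It was 0 with total counts, 0 without the filter, 0 with the replicate block and 0 to 2 with single libraries left out. Calls in WT_Ino80 against WT_H2AZ, 3, were 5 without the fold limit, where 43.1% of all genes were called. With single libraries left out they were 2 to 3, and list calls were 12 to 20. In H2AZ_4KR against WT_Ino80, 3 members were called, against 5 without the fold limit, where 34.9% of all genes were called. With single libraries left out, 2 to 4 members were called. Without both libraries numbered 1, Ino80_K929R gave IMD3 -0.0615, ADE1 0.0073, ADE57 -0.051 and GUD1 -0.0301. With total counts the difference for ADE17 was 0.0725, and H2AZ_4KR over WT_Ino80 was -0.0525 for IMD3 and -0.0272 for IMD4. The cause of these shifts was not tested.

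Leaving out single libraries reversed the sign of small values. In Ino80_K929R the ranges were -0.065 to 0.0902 for IMD3, -0.42 to 0.15 for ADE1, -0.54 to 0.32 for MTD1, -0.14 to 0.28 for ADE2, -0.0486 to 0.0893 for ADE57, -0.17 to 0.62 for ADE17, -0.0052 to 0.25 for IMD2 and -0.20 to 0.0435 for ADE4. For list genes they were -0.16 to 0.0396 for ADE12, -0.47 to 0.64 for BAS1, -0.0113 to 0.0567 for GUA1, -0.092 to 0.33 for GUD1, -0.0749 to 0.0908 for PRS2 and -0.30 to 0.41 for SHM2, and BAS1 had -0.39 to 0.0406 in H2AZ_4KR. The difference between the mutants ran from -0.10 to 0.14 for ADE13 and -0.63 to 0.15 for ADE17. ADE1 had -0.0488 to 0.54 in WT_Ino80 over WT_H2AZ. In H2AZ_4KR over WT_Ino80 the ranges were -0.0826 to 0.14 for IMD3, -0.0221 to 0.20 for IMD4, -0.0037 to 0.75 for MTD1 and -0.0243 to 0.56 for ADE1.

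Of 1072 values of single genes under the alternatives, 957 kept their direction and their side of the threshold. Replicate numbers did not pair the samples throughout: same-numbered libraries had deviations correlated at -0.11 to 0.32 in the H2AZ table and -0.60 to 0.52 in the Ino80 table. Between mutant and wild-type libraries of different numbers the values were -0.435 to 0.206 and -0.685 to 0.77. What some of these libraries share was not tested. With the replicate block 5 members were called in H2AZ_4KR, 0 in Ino80_K929R and 3 between the wild types.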

Other observations

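Between the wild types the pathway lists held more calls than in either mutant comparison: 15 of 50 list genes rose and 4 fell in WT_Ino80 against WT_H2AZ, in a comparison where 17.7% of all genes rose and 15% fell. Without replicate 1 of WT_Ino80, 12 list genes in place of 19 were called. Of the PRPP synthetase genes 3 of 5 rose, and of the one-carbon genes 5 of 9. PRS4 averaged 175 ± 9.87 CPM in WT_Ino80 and 88.0 ± 4.26 CPM in WT_H2AZ (log2 1.06, edgeR adjusted p = 8.13e-05). XPT1 averaged 93.3 ± 17.7 CPM in WT_Ino80 and 43.3 ± 0.683 CPM in WT_H2AZ (log2 1.20, adjusted p = 0.00037). GUD1 averaged 18.4 ± 3.68 CPM in WT_Ino80 and 48.3 ± 3.52 CPM in WT_H2AZ (log2 -1.32, adjusted p = 0.00086). HIS4, a histidine synthesis gene that Bas1 and Gcn4 are known to activate, averaged 113 ± 10.4 CPM in WT_Ino80 and 428 ± 51.9 CPM in WT_H2AZ (log2 -1.86, adjusted p = 8.12e-06; SD, n = 3 for all). Its groups did not overlap. Table and strain cannot be told apart here.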
